A study of Mus musculus with 10 samples.

Results

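The genes described are the 8 members of the voltage-gated calcium channel pore subunit family chosen by name, Cacna1a, Cacna1b, Cacna1c, Cacna1d, Cacna1e, Cacna1g, Cacna1h and Cacna1i, and all 8 were present among the 13661 genes of the authors' deposited table. They were measured by poly(A) RNA sequencing of cortex from male mice aged 8 weeks, 5 of them labelled Chd8 KI (knock-in, KI below) and 5 labelled wild-type (WT). Chd8 encodes a chromatin remodeller linked to autism, and the series title presents the mice as a model of its duplication. The construction of the allele, the promoter that drives it and the strain were not given in the sources used here, and the labels do not tell whether any mice were littermates. The deposited values are 1 comparison of KI with WT, made by the authors with DESeq2, so neither a value nor a sequencing depth can be given for any library, and no spread over libraries could be computed. The header names no direction, and fold changes were read as KI over WT because Chd8, at 1.40-fold (95% interval 1.22 to 1.61, adjusted p = 0.0044 by the authors' DESeq2 test), is then higher in KI in the authors' deposited table. Markers of cortical tissue were present, with Camk2a, a kinase of excitatory synapses, at a mean normalised count of 62823 and Slc17a7, the vesicular glutamate transporter of cortical excitatory neurons, at 28078 in the authors' deposited table.

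Each of these genes encodes the large subunit that forms the calcium-selective pore and senses voltage, and 4 homologous repeats in that subunit surround the pore. P/Q type (Cacna1a) and N type (Cacna1b) channels admit the calcium that triggers transmitter release, while L type channels (Cacna1c, Cacna1d) sit mainly on cell bodies and dendrites and signal to the nucleus. R type channels (Cacna1e) act at both synaptic sides, and all these types generally open at stronger depolarisation than the T types. T type channels (Cacna1g, Cacna1h, Cacna1i) open near the resting potential and underlie burst firing, for which thalamic relay neurons, rich in Cacna1g, are well known.

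The split of the family into high-voltage and T type channels can be read in the codon for the selectivity filter, the ring of acidic residues, 1 from each repeat, that binds calcium in the pore. The coding sequences below show the filter codon of the fourth repeat in capitals with 12 bases on either side, from the GENCODE M21 transcript with the longest coding sequence of each gene. They are given because this codon separates the types used to order the results.
Cacna1a: agcgccacaggaGAAgcgtggcacaac
Cacna1b: agtgccactgggGAGgcctggcatgag
Cacna1c: tgtgccaccggaGAGgcctggcaggac
Cacna1d: tgtgcaacagggGAAgcctggcaggag
Cacna1e: agtgccacggggGAGgcttggcaggag
Cacna1g: gtctccactggtGACaactggaatggt
Cacna1h: gtgtccactgggGACaactggaatggg
Cacna1i: gtctccacaggcGATaactggaatggg
The codon was GAA or GAG, for glutamate, in the 5 high-voltage genes, and GAC or GAT, for aspartate, in the 3 T type genes. The third repeat showed the same division, with a glutamate codon in 5 genes and GAT for aspartate in 3, and there the 27 bases crossed an exon junction in all 5 high-voltage genes and in none of the 3 T type genes. In the first and second repeats the motif searched for allowed only glutamate at this position, and it was found in all 8 genes. On GRCm38 the fourth-repeat stretches lie at chr8:84611599-84611625 (plus strand, exon 35 of 47) in Cacna1a, chr2:24635213-24635239 (minus strand, exon 36 of 47) in Cacna1b and chr6:118614050-118614076 (minus strand, exon 36 of 48) in Cacna1c. Those of the other high-voltage genes are at chr14:30075944-30075970 (minus strand, exon 36 of 49) in Cacna1d and chr1:154425975-154426001 (minus strand, exon 37 of 47) in Cacna1e. The T type stretches are at chr11:94416415-94416441 (minus strand, exon 32 of 38) in Cacna1g, chr17:25377771-25377797 (minus strand, exon 31 of 35) in Cacna1h and chr15:80388485-80388511 (plus strand, exon 31 of 37) in Cacna1i.

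All 8 are protein-coding genes on different chromosomes, with longest coding sequences of 6537 to 7143 bases. In the RefSeq annotation of GRCm38, Cacna1a (gene 12286) lies on chromosome 8 from 84338631 to 84640251 and Cacna1b (12287) on chromosome 2 from 24603860 to 24763200. The L type genes are Cacna1c (12288) on chromosome 6 from 118587240 to 119197384 and Cacna1d (12289) on chromosome 14 from 30039941 to 30491156, the chromosome that also holds Chd8. Cacna1e (12290) lies on chromosome 1 from 154390806 to 154884785. Of the T type genes, Cacna1g (12291) lies on chromosome 11 from 94408391 to 94474400, Cacna1h (58226) on chromosome 17 from 25374285 to 25436334 and Cacna1i (239556) on chromosome 15 from 80287238 to 80398292. The T type genes are the 3 shortest of the family on the genome, spanning 62.05 to 111 kb, against 159 to 610.1 kb for the high-voltage genes. Values are for whole genes, so splice forms were not separated. Exons of 3 members overlap exons of a gene on the opposite strand in GENCODE M21. These are Cacna1a with the antisense gene Gm16183 (435 of 11418 exon bases), Cacna1d with Chdh (589 of 12621) and Cacna1h with Tpsg1 (158 of 9763). The use of strand in counting was not given in the sources used here, so reads in those stretches cannot be told apart. Runs of 50 identical bases between the members' coding sequences numbered 19 for Cacna1g with Cacna1i and 1 for Cacna1h with Cacna1i. No other pair had any. Such runs can overlap, so 19 is not a number of separate stretches.

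The P/Q type gene Cacna1a was the most abundant member per length, at 514 normalised counts per kb of its longest annotated transcript, as a mean over all 10 libraries. The R type gene Cacna1e followed at 284, and the T type gene Cacna1i, known from thalamic reticular neurons and also expressed in cortex, at 272. The N type gene Cacna1b stood at 235 counts per kb. The other T type genes, Cacna1g and Cacna1h, stood at 217 and 182, and the L type genes Cacna1d and Cacna1c were lowest, at 107 and 97.4. The range over the family was thus 5.27-fold. Cacna1a supplied 26.9% of the summed level per kb of the 8 genes, and the L type pair supplied 5.61% (Cacna1d) and 5.11% (Cacna1c). All 8 were tested, and the member with the fewest counts, Cacna1d, had a mean normalised count of 1033 in the authors' deposited table, where the lowest of any gene was 24.4. Which transcript cortex uses was not measured here. Counted per kb of the longest coding sequence, Cacna1e came first, at 621 against 573 for Cacna1a, and Cacna1c moved above Cacna1d, at 192 against 158. The order of the 4 genes between these pairs was the same on both lengths. With no values per library, whether neighbours in this order differ beyond their spread could not be tested.

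**Figure D1:**
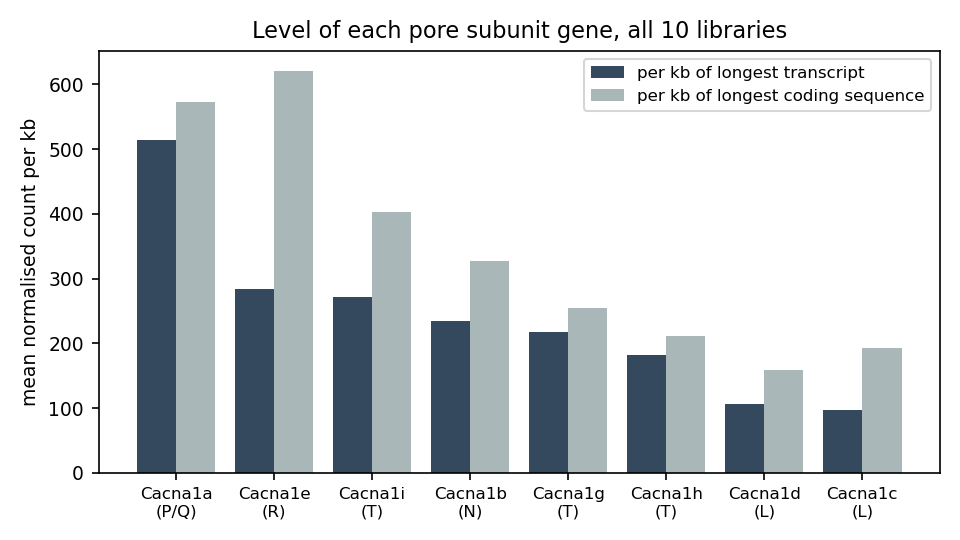
Mean normalised count per kb of each pore subunit gene over all 10 libraries, with channel type in brackets. Dark bars use the longest annotated transcript and light bars the longest coding sequence. Cacna1a is highest by the first (514) and Cacna1e by the second (621), and the L type genes are lowest by both.

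No pore subunit gene passed the threshold used between KI and WT cortex, an adjusted p under 0.05. The members called were 0 of 8, against 0.0732% of all 13660 genes with a p-value (10 genes, the authors' DESeq2 Wald test). None had an unadjusted p under 0.05 either, against 3.22% of all genes (440), and the members' unadjusted p ran from 0.315 to 0.84. The 8 adjusted p-values were all 0.99986 in the authors' deposited table. The largest Wald score in size was the 1.004 of Cacna1b in the authors' deposited table, a size that 24.3% of all genes reached or passed. These p-values measure the spread between the 10 samples, which may in part be technical.

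Both genes of presynaptic release channels stood slightly above 0. The log2 fold change of Cacna1a was 0.055 in the authors' deposited table (standard error 0.11, unadjusted p = 0.612), which is 1.04-fold with a 95% interval of 0.897 to 1.20. Cacna1b stood at 0.089 (standard error 0.089, unadjusted p = 0.315) in the authors' deposited table, or 1.06-fold with an interval of 0.943 to 1.20. The intervals reach 1.20-fold at the upper end for both genes, and the lower end of that of Cacna1a is lower.

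Both L type genes also stood above 0 without passing. Cacna1c, whose channel is the main L type of forebrain neurons and of heart muscle, stood at 0.067 in the authors' deposited table (standard error 0.095, unadjusted p = 0.479), or 1.05-fold with an interval of 0.921 to 1.19. Cacna1d, whose channel opens at less depolarised potentials than that of Cacna1c, had the highest log2 fold change of the family at 0.11 (standard error 0.12, unadjusted p = 0.342) in the authors' deposited table, or 1.08-fold with an interval of 0.921 to 1.27. The R type gene Cacna1e stood at 0.058 in the authors' deposited table with the largest standard error of the family, 0.21 (unadjusted p = 0.781), so its 1.04-fold value carries an interval of 0.785 to 1.38.

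As deposited, the T type genes stood closest to 0. With the trend of fold change on transcript length removed, as given below, Cacna1g at -0.071 was the member furthest from 0. Cacna1g stood at -0.035 in the authors' deposited table (standard error 0.12, unadjusted p = 0.768), which is 0.976 of the WT level with an interval of 0.83 to 1.15. Cacna1h, which is also expressed in sensory neurons, stood at 0.029 (standard error 0.13, unadjusted p = 0.828) in the authors' deposited table, or 1.02-fold with an interval of 0.853 to 1.22. Cacna1i stood at -0.019 in the authors' deposited table (standard error 0.096, unadjusted p = 0.84), or 0.987 of WT with an interval of 0.866 to 1.12. All 5 high-voltage genes were thus above 0 (median 0.067) and 1 of 3 T type genes was (median -0.019), and since every interval holds 0, these signs are a description and the difference between the types was not tested.

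**Figure D2:**
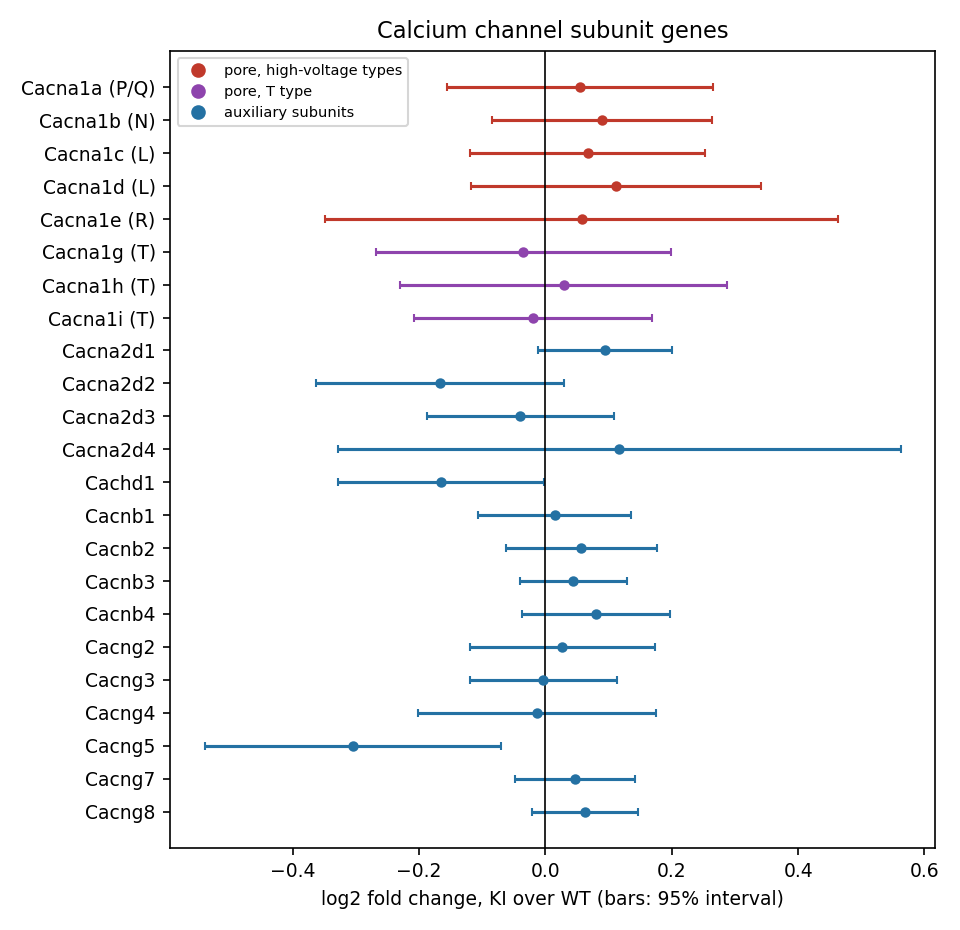
Log2 fold change of KI over WT in the authors' deposited table for the 8 pore subunit genes (type in brackets) and 15 auxiliary subunit genes. Points are the deposited values and bars 95% intervals from the deposited standard errors. The 8 pore intervals all include 0 and reach from -0.35 to 0.46, both ends being those of Cacna1e.

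As a family, 6 of 8 members were above 0 with a median log2 fold change of 0.056, where 51.6% of all genes were above 0 and the median was 0.0025. Long transcripts as a whole were shifted in the same direction. The members' longest transcripts measured 7926 to 14921 bases, against a median of 3565 bases over all genes with a length. Among the 892 genes whose longest transcript was at least as long as that of the shortest member, 77.8% were above 0, and their median log2 fold change was 0.046. Across the 13098 genes with a length, Spearman's rho between Wald score and transcript length was 0.248, and genes are not independent replicates. With the trend of fold change on transcript length removed, 4 of 8 members were above 0 and their median was 5.4e-05. The members then stood at 0.067 (Cacna1d), 0.045 (Cacna1b), 0.022 (Cacna1a), 0.0063 (Cacna1c), -0.0062 (Cacna1h), -0.0098 (Cacna1e), -0.064 (Cacna1i) and -0.071 (Cacna1g) on the log2 scale. The part of transcript length in these values was not tested beyond this removal.

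The intervals bound what could have been missed. All 8 lay within 0.5 of 0 on the log2 scale, as did those of 88.5% of all genes. Every upper end lay below the 0.49 of Chd8 itself, a point value whose own interval is 0.29 to 0.69. Widened to hold for all 8 genes together, 7 of 8 lay within 0.5 of 0, Cacna1e being the exception. The intervals use the normal distribution, and the wider ones of a t distribution were not computed. The last gene to pass the threshold had a Wald score of 4.15 in size. At that score and the deposited standard errors, Cacna1b would have passed at a 1.29-fold level or at 0.774 of WT, and Cacna1c and Cacna1i at 1.31-fold and 1.32-fold. Cacna1a would have needed 1.36-fold, Cacna1d 1.40-fold, Cacna1g 1.41-fold and Cacna1h 1.46-fold. Cacna1e would have needed about 1.82-fold, or 0.551 of WT. These are measured levels at which a gene would have been called, and not limits on the true differences that could be found.

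The pore subunit genes had large standard errors for their abundance. Each was ranked among the genes whose mean normalised count lay within 2-fold of its own, and the percentile is the share of those genes with a smaller standard error. Cacna1e stood at the 99.1th percentile, with a standard error 3.75 times the median of the 1820 genes in its range. Cacna1h followed at 96.9 (2.01 times the median), Cacna1g at 96.2 (1.88 times) and Cacna1a at 95.9 (1.94 times). Cacna1d stood at 94.2 and Cacna1i at 92.5, and the lowest members, Cacna1b and Cacna1c, at 88.8 and 88.1. Their own auxiliary subunits spread over the scale, from 3.8 (Cacng8) to 89.2 (Cacna2d2) with a median of 50.4 over 15 genes, so every pore gene but Cacna1b and Cacna1c ranked above all 15. The median rank was 95.1 for the pore genes, 93.9 for the 6 release channels of intracellular stores, 92.3 for 8 striatal markers and 89.9 for 15 thalamus markers. These were the highest lists. Apart from the auxiliary subunits, the other lists had medians from 40.6 (excitatory cortical markers) to 79.6 (choroid plexus markers). Among the long transcripts alone, the members ranked from 63.8 (Cacna1b) to 95.8 (Cacna1e), with a median of 80.3. The 892 genes with transcripts as long as the members' had a median percentile of 75.6, and 655 of them had a standard error above the median of their abundance range, although the correlation of percentile and length across all genes was weak (Spearman's rho 0.021). The ranking was chosen after the values were seen and carries no test.

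Cacna1e stood apart from the other members in this respect. In its abundance range no gene had a standard error between 0.137 and 0.157, 41 genes lay above that gap, and Cacna1e at 0.207 was among them, with 16 genes above it. The gap was the largest ratio of neighbouring values in a search of the upper ranks, so some gap had to be found. The ranges of the other members were not searched. The standard errors of the other 7 members were 1.40 to 2.01 times the median of their ranges. Some nuclear-retained RNAs, named after their values were seen, had standard errors of 0.66 (Malat1), 0.46 (Meg3), 0.38 (Miat) and 0.25 (Neat1) in the authors' deposited table. These were 13.2, 9.55, 7.15 and 3.41 times the median of their own abundance ranges in that order. Nuclear-retained RNAs as a class were not examined. The channels of intracellular calcium stores Ryr2 (0.20), Ryr3 (0.33) and Ryr1 (0.35), which amplify calcium entry, also had large standard errors in the authors' deposited table. Without values per library it cannot be said whether 1 library or many carry this spread.

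**Figure D3:**
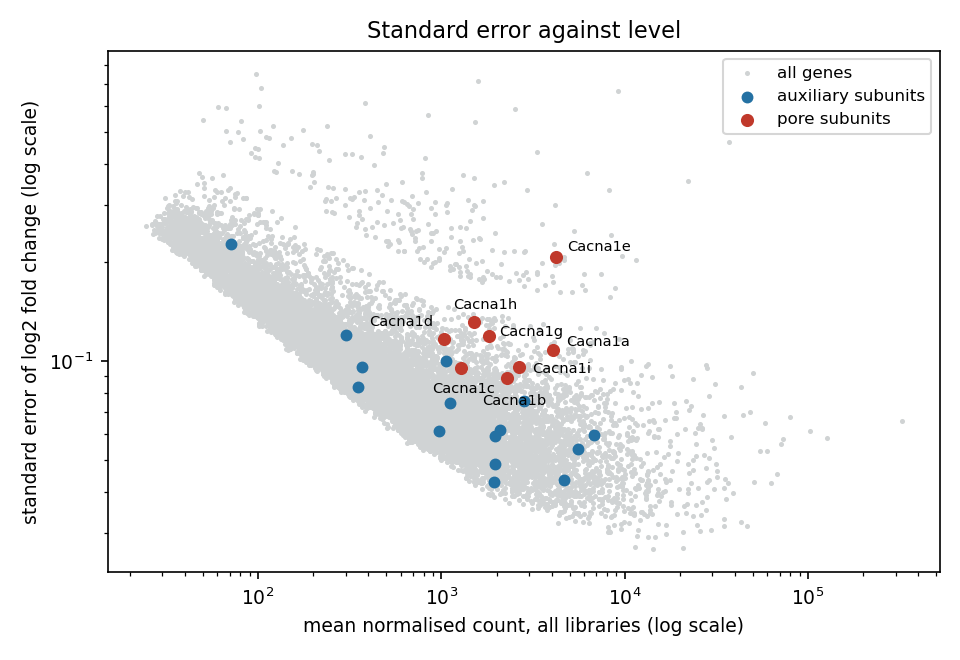
Deposited standard error of the log2 fold change against mean normalised count, both on log axes, for all genes with a p-value (grey), 15 auxiliary subunit genes (blue) and the 8 pore subunit genes (red). The pore genes lie high among genes of like abundance, at 1.40 to 3.75 times the median, and Cacna1e at 0.207 is highest among them.

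Auxiliary subunits, which set channel traffic and gating, did not pass the threshold either. Of 17 listed genes 15 were in the authors' deposited table, none passed, and 2 had an unadjusted p under 0.05, both lower, where 1.88% of all genes were lower at that level. The alpha2delta subunits carry channels to the membrane. In the authors' deposited table Cacna2d1 had a log2 fold change of 0.094, standard error 0.054, and Cacna2d3 at -0.040 (0.076). Cacna2d2 stood at -0.17 (0.10), the related Cachd1 at -0.17 (0.083, unadjusted p = 0.0467) and the weakly expressed Cacna2d4 at 0.12 (0.23) in the authors' deposited table. The cytoplasmic beta subunits, which release channels from the endoplasmic reticulum, were all above 0. Cacnb4 stood at 0.080 (standard error 0.060), Cacnb2 at 0.057 (0.061), Cacnb3 at 0.044 (0.043) and Cacnb1 at 0.015 (0.062) in the authors' deposited table. Cacnb3 was the most abundant subunit gene per kb of the longest transcript, at 1699.6 counts against 829 for Cacnb4, while per kb of the longest coding sequence Cacnb4 was, at 4382 against 3200.2 for Cacnb3. The interval of Cacnb3, -0.041 to 0.13, was narrower than that of any pore gene.

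The gamma subunit family, most of whose brain members serve as auxiliary proteins of AMPA receptors, included the lowest value of all subunits. Cacng5 stood at -0.30 in the authors' deposited table (standard error 0.12, unadjusted p = 0.011, adjusted p = 0.99986). Cacng8, Cacng7 and Cacng2 stood at 0.062, 0.047 and 0.027, and Cacng3 and Cacng4 at -0.0036 and -0.013, in the authors' deposited table. Cacna1f and Cacna1s, the L type pore genes of retina and skeletal muscle, and Cacng1 and Cacng6 were not among the genes tested and were not analysed here.

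Genes for proteins that work with these channels did not pass the threshold. Of 15 listed partners and regulators 13 were tested and none passed, with 1 unadjusted p under 0.05, higher, where 1.34% of all genes were higher at that level. That gene was Rims2, an active zone protein that binds calcium channels, at 0.085 (standard error 0.041, unadjusted p = 0.0375) in the authors' deposited table. The related Rims1 stood at 0.062 (0.065) and Gem, a small GTPase that inhibits the channels, at 0.36 (0.23) in the authors' deposited table. Stac, of a family of L type channel adaptors, stood at 0.30 (0.27) in the authors' deposited table. Gem and Stac were weakly expressed, with mean normalised counts of 37.7 and 39.9, where the lowest of any gene was 24.4. Potassium channels opened by calcium numbered 6, none with an unadjusted p under 0.05 and 5 above 0. The large-conductance channel gene Kcnma1 stood at 0.097 (standard error 0.11), its beta subunit genes Kcnmb2 and Kcnmb4 at 0.25 (0.19) and 0.064 (0.082), and the small-conductance gene Kcnn2 at 0.082 (0.079) in the authors' deposited table. Release channels of intracellular stores numbered 6, again none with an unadjusted p under 0.05. As deposited 5 were above 0 (median 0.030), and with the length trend removed 2 were (median -0.036). The inositol trisphosphate receptor gene Itpr1, with the highest mean count of the list, stood at 0.13 (standard error 0.066, unadjusted p = 0.053), with Ryr2 at 0.13 (0.20), Itpr3 at -0.12 (0.15) and Itpr2 at 0.018 (0.13) in the authors' deposited table.

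Cacna1g, abundant in thalamus, stood nearer 0 than most thalamus marker genes, a difference that was not tested. Of 17 such markers 15 were tested, 4 passed the threshold, all lower in KI, where 0.0659% of all genes passed as lower, and the median log2 fold change of the 15 was -0.40, against -0.035 for Cacna1g. The 4 were Tnnt1 at -1.34, Prkcd at -1.20, Tcf7l2 at -0.92 and Ramp3 at -0.40 in the authors' deposited table, and they were listed with their fall already known. With the length trend removed, Ramp3 no longer passed (adjusted p = 0.0668 from the deposited standard error). Under a t distribution with 8 degrees of freedom no gene of the whole table passed, Chd8 included (adjusted p = 0.99987 for Chd8 and for the 4). That setting therefore cannot tell whether these 4 calls hold. The whole list was chosen with earlier results of these data known, so its median and counts are no independent measure for Cacna1g. Another 7 markers had an unadjusted p under 0.05, all lower, where 1.88% of all genes were lower at that level. Of the 15, 10 stood below -0.27, the lower end of the interval of Cacna1g. The exceptions included the marker with the highest mean count, Adarb1 (-0.10, standard error 0.060), Ptpn3 (0.0052), Lef1 (0.090) and Lhx9 (0.23) in the authors' deposited table. Gbx2 and Shox2 were not among the genes tested. The samples are labelled cortex, and how much thalamic tissue each one held was not given. In bulk tissue, less thalamic tissue in the sample, fewer thalamic cells and less RNA per cell cannot be told apart. How much of the Cacna1g reads came from thalamic cells was not tested. The other T type genes, Cacna1h at 0.029 and Cacna1i at -0.019, were also nearer 0 than the marker median.

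**Figure D4:**
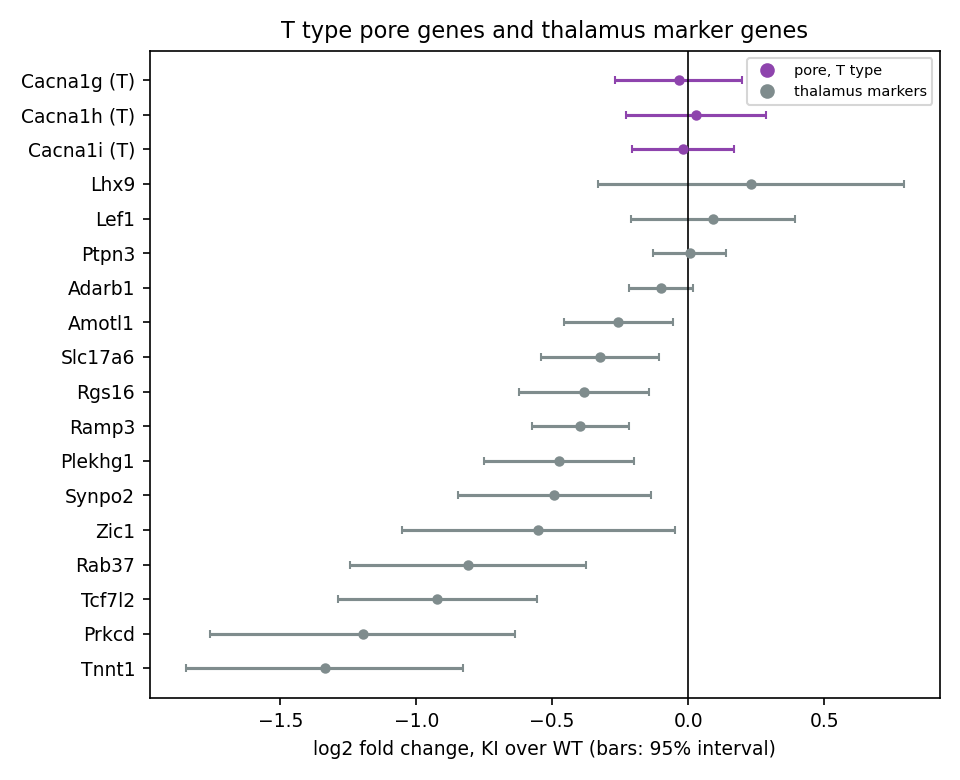
Log2 fold change of KI over WT in the authors' deposited table for the T type pore genes and 15 thalamus marker genes, ordered by value. Points are deposited values and bars 95% intervals from the deposited standard errors. The T type genes lie between -0.035 and 0.029, and 10 markers lie below the lower end of the Cacna1g interval.

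Markers of other cells that hold these channels were read beside the members, and their part in the members' values was not tested. Excitatory cortical markers were above 0 in 9 of 10 genes (median 0.052) and none passed the threshold. With the length trend removed their median was 0.046, against 5.4e-05 for the pore genes. Those with the smallest p were Camk2a at 0.12 (standard error 0.042), Neurod2 at 0.15 (0.084) and Slc17a7 at 0.062 (0.039) in the authors' deposited table. Inhibitory neuron markers were below 0 in 6 of 8 (median -0.059), striatal markers in 8 of 8 (-0.074) and oligodendrocyte markers in 8 of 8 (-0.081), none past the threshold. Smooth muscle and pericyte markers, from cells that use Cacna1c and Cacna1h, had a median of -0.028 over 8 genes, and astrocyte markers -0.0038 over 6. Meningeal and choroid plexus markers were below 0 in 8 of 8 (median -0.25) and 6 of 6 (-0.26), with 1 past the threshold, Igf2 at -0.29 in the authors' deposited table. Hippocampal markers were above 0 in 4 of 6 (median 0.21) and none passed. The smallest p of the list belonged to Dsp, which was higher in KI with a deposited log2 fold change of 0.598. By the authors' DESeq2 test its unadjusted p was 0.000428 and its adjusted p 0.39. No other hippocampal marker had an unadjusted p under 0.05. The 2 below 0 had the highest mean counts of the 6, Wfs1 with a deposited log2 fold change of -0.079 among them. The median therefore lies between values of less abundant genes. Cerebellar markers, from a tissue rich in Cacna1a and Cacna1g, had 5 of 9 members tested with a median of -0.090 and none past the threshold. Of the 5, 3 had an unadjusted p under 0.05 by the authors' DESeq2 test, against 3.22% of all genes. Car8 was higher, at 0.25, and Zic2 and Pcp4 were lower, at -0.33 and -0.12, in the authors' deposited table. Itpr1 is also on the list of release channels, and whether the 5 report on cerebellar tissue was not tested. Gabra6, Cbln3, Pcp2 and Fat2 were not among the genes tested.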

How the data were processed

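Cortex RNA of 5 KI and 5 WT male mice was sequenced, and groups were read from the sample titles. Trimmomatic 0.39, HISAT2 2.1.0, featureCounts 2.0.0, DESeq2 1.26.0 and build mm10 are named, per the submitters' processing notes. Settings, annotation, strand use, filters, model formula and shrinkage of fold changes were not stated there. Per the file headers, the table gives each gene a mean normalised count (a signal value over all libraries), a log2 fold change with its standard error, a Wald score, a p-value and an adjusted p-value. Counts per library were not analysed here, so the count model foreseen for them was not used and no SD is given. The deposited adjusted p-values matched a Benjamini-Hochberg adjustment over 13660 genes to within 9.94e-14.

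Symbols and coordinates came from RefSeq for GRCm38, the assembly behind mm10, which named 13497 genes. Lengths (13098 genes) and coding sequences came from GENCODE M21, and filter codons were found by their conserved pore motifs. The length trend is a lowess curve (span 0.3, statsmodels 0.14.6) on log transcript length. Python 3.11.15, SciPy 1.17.1 and pandas 2.3.3 were used, and calling and trend removal were tested on simulated data. Members and lists were chosen with earlier results of these data known. Named genes are the members, Chd8, all auxiliary subunits tested and, per functional list, the gene with the highest mean count and up to 4 with the smallest p. The nuclear RNAs, Ryr1, Ryr3 and the thalamus markers Ptpn3, Lef1 and Lhx9 were named after their values were seen, most cell type markers are given as counts and medians only, and some genes that this rule names are not reported here.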

Additional observations from a re-analysis of the deposited data

How the results depend on the processing

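No paired analysis was possible because the deposited table has no column per library, and for the same reason leaving out each replicate could not be run. No alternative brought a pore subunit gene past the threshold. With the length trend removed, Cacna1e stood at -0.0098 and Cacna1h at -0.0062, on the other side of 0 from their deposited values, and the other 6 members kept their sign. Centring on the median of all genes moved every value by 0.0025 and changed no sign, and a t distribution with 8 degrees of freedom changed no value or call of a member. Intervals were not recomputed under the t distribution. The family median was 0.054 after centring, 5.4e-05 with the length trend removed and 0.058 without Cacna1g. Over all genes, 10 passed as deposited, 6 at an adjusted p under 0.01 and 5 with a minimum log2 change of 0.5. With the length trend removed 9 passed. Under the t distribution, added later, 0 passed, with 212 genes at an unadjusted p under 0.05. Since Chd8 did not pass there either, that setting cannot tell which single calls hold. Levels per kb of the longest coding sequence were 573 for Cacna1a, 327 for Cacna1b, 192 for Cacna1c, 158 for Cacna1d, 621 for Cacna1e, 255 for Cacna1g, 212 for Cacna1h and 404 for Cacna1i. The median standard error percentile of the members was 80.3 among long transcripts, an alternative chosen after seeing the data.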
